A study of Rattus norvegicus with 6 samples.

Results

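The 4 microRNAs described here, all made in striated muscle, lie within genes of the contractile apparatus and the membrane skeleton. They were measured in adult rat cardiomyocytes and in the cells that arise from them in culture. The miRNAs were taken by host gene, not by their measured values: mmu-miR-208 (host Myh6), mmu-miR-208b (host Myh7), mmu-miR-499 (host Myh7b) and mmu-miR-486 (host Ank1), which are 4 of the 375 rodent miRNA assays on the card. The study asked how far adult heart muscle cells dedifferentiate in culture. Myocytes were purified from hearts of 2-month-old Wistar-Kyoto rats, and myocyte-derived cells (MDCs) are the rounded, loosely held cells that were pipetted off such cultures. The labels give 2 weeks in mitogen-rich medium for both groups, whereas the study itself describes the myocytes of the miRNA comparison as freshly isolated, so the labels and the study differ on the culture of the myocyte samples. The labels name no genetic change or drug for either group, and none says from how many animals a sample came.

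A miRNA inside an intron is usually transcribed together with its host gene and cut out of the transcript. Myh6 encodes the alpha and Myh7 the beta heavy chain of cardiac myosin, the motor protein of the sarcomere, and their ratio sets contraction speed in the heart. Myh7b encodes a related myosin of slow muscle and heart. In the mouse, miR-208 takes part in control of beta myosin and of the 2 other myosin-hosted miRNAs. Ank1 encodes ankyrin 1, which ties the membrane to the skeleton beneath it, and miR-486 is abundant both in striated muscle and in red blood cells.

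The sequences are shown because the 3 myosin-hosted miRNAs look alike at the end that recognises targets. RefSeq tables of the rat (build GRCr8) held 3 of the 4 miRNAs under the rat names. In the mature sequences, written 5′ to 3′, capitals mark the seed, bases 2 to 8.
rno-miR-208a-3p: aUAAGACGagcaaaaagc
rno-miR-208b-3p: aUAAGACGaacaaaaggu
rno-miR-499-5p: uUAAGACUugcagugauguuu
The seed UAAGACG was found in 2 of the 724 rat mature entries of the table, rno-miR-208a-3p and rno-miR-208b-3p. Over the compared 18 bases these 2 were identical at 15, and they differed by G10A, A16G and C18U, with positions counted from 1 at the 5′ end and the base of rno-miR-208a-3p first. Against rno-miR-499-5p, 10 of 18 bases were identical, and the only difference within the seed was G8U. Bases 2 to 7, UAAGAC, were therefore common to all 3 miRNAs, and these were the 3 entries of 724 with that stretch.

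The hairpins show the arm from which each miRNA is cut, with the mature sequence in capitals.
Mir208a: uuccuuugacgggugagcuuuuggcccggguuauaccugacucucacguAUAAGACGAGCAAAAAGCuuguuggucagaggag
Mir208b: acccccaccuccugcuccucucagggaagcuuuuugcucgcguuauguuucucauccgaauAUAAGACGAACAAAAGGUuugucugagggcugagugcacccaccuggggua
Mir499a: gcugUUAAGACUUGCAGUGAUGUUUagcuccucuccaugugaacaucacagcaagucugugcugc
Mir208a lies at chr15:32395552-32395634 on the minus strand, within the span of Myh6. Mir208b lies at chr15:32421615-32421726 on the minus strand, within Myh7, 26.0 kb from Mir208a. Mir499a lies at chr3:164570612-164570676 on the plus strand, within Myh7b. The mature sequence is in the 3′ arm of both miR-208 hairpins and in the 5′ arm of Mir499a. The table gives gene spans without exons, so that intron positions are background knowledge here. Mir3546, on the opposite strand, and a long non-coding RNA overlap Mir208a, and a long non-coding RNA also overlaps Mir208b. Host gene transcripts were not measured on the card.

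Each well of the card held the TaqMan PCR assay of 1 small RNA, and its value was the Ct, the PCR cycle that first brought the dye signal over a set threshold, so that fewer cycles stand for more template. Levels are the mean Ct of the 4 U6 wells minus the Ct of the assay, in log2 units, assuming that template doubles in each cycle. There were 3 sets of Ct values per group. Myocyte 2 and 3 had signal in the same wells and U6 wells that differed by at most 0.0109 cycles in pattern, and the 3 MDC sets likewise (at most 0.0340), whereas Myocyte 1 and 2 differed in 23 of 384 wells and by 0.432 cycles. Sets of the first kind were treated as repeat readings of a shared card and their mean was used, leaving n = 2 myocyte samples and 1 MDC sample. The Ct values themselves differed with an SD over wells of 0.0892 cycles between Myocyte 2 and 3, 0.490 between Myocyte 1 and 2, 1.09 between MDC 1 and 2, 1.42 between MDC 1 and 3 and 0.383 between MDC 2 and 3. MDC 1 thus stood further from the other MDC sets than the separate myocyte cards did from each other. Its values also lay close to whole cycles, with a Ct of 21.98 for snoRNA135, 21.99 for Y1 and 30.98 for U87. In MDC 2 these were 20.49, 23.31 and 31.15, and in MDC 3 they were 21.61, 25.52 and 33.18. The reason is not known here, so the decimals of values from MDC 1 need caution. Without MDC 1 the miR-499 difference between MDCs and myocytes was -9.62. The study describes both biological and technical repeats without tying them to sets, so that taking the MDC sets as 1 sample is an inference from the empty wells and the U6 wells. With this choice the p-values hold the spread between myocyte cards only and no spread among MDC cultures, and an exact permutation test of 2 samples against 1 could not go below p = 0.333. Signal was found for 203 to 212 miRNAs in the myocyte sets and for 201 in each MDC set. Mean U6 Ct was 14.7, 14.9 and 15.1 in Myocyte 1 to 3 and 14.0, 13.4 and 14.4 in MDC 1 to 3. No counting interval is given, because a Ct does not tell how many template molecules a well held.

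All 4 miRNAs gave signal in every myocyte set, and 1 of them, miR-499, gave signal in MDCs. miR-499 was 758-fold lower in MDCs, and miR-208, miR-208b and miR-486 had no signal in any of the 3 MDC sets. In RNA from many cells, fewer cells that carry a miRNA and less of it per cell cannot be told apart. As background, limma (Benjamini-Hochberg adjustment over 157 miRNAs with signal on every card) called 82 miRNAs lower in MDCs, which is 52.2% of those tested, and 44 higher, with a median difference of -0.80 over all 157. Of 196 miRNAs with signal on both myocyte cards, 39 had no MDC signal, which is 19.9%.

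**Figure D1:**
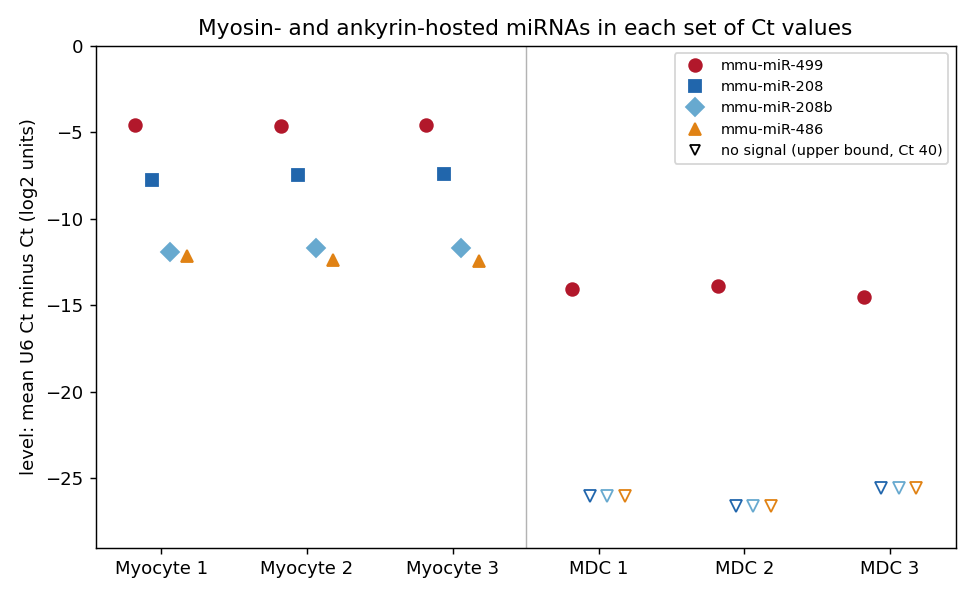
Level of each miRNA in the 6 sets (y axis, log2 units relative to U6). Filled symbols are measured values and open triangles are upper bounds for wells without signal, placed at Ct 40. miR-499 stood at -4.61 to -4.55 in myocytes and at -14.51 to -13.88 in MDCs, and the other 3 miRNAs had bounds only in MDCs.

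miR-499 was the brightest of the 4 in myocytes. Its Ct was 19.25, 19.52 and 19.66 in Myocyte 1 to 3 and 28.01, 27.27 and 28.94 in MDC 1 to 3. Relative to U6, Myocyte 1 to 3 had levels of -4.57, -4.61 and -4.55, whereas MDC 1 to 3 had -14.03, -13.88 and -14.51. The lowest myocyte set thus lay over 9 log2 units above the highest MDC set, and the readings within each group lay close together. The level corresponded to 4.10 to 4.27% of U6 template in myocytes and to 0.00429 to 0.00664% in MDCs. By rank, miR-499 moved from place 32 of 212, 39 of 203 and 37 of 203 in the myocyte sets to place 161, 161 and 163 of 201 in the MDC sets, a description that needs no normalizer. The card means were -4.57 ± 0.01 (SD, n = 2) in myocytes and -14.14 in MDCs (1 merged sample). The difference was -9.57 (SE 0.348, 95% confidence interval -10.25 to -8.88, limma adjusted p = 1.11e-60), the sixth largest fall among the 157 miRNAs tested. The small p comes with an SD of 0.284 that limma's moderation assigned to every miRNA. With all 6 sets entered as separate samples the difference was -9.56 (limma adjusted p = 2.81e-11).

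miR-208, from the alpha myosin gene, followed miR-499 in myocytes. Its Ct was 22.4, 22.4 and 22.5, and its level was -7.72, -7.46 and -7.42, which placed it at rank 71, 71 and 69 among detected miRNAs. All 3 MDC wells had no signal. A well without signal sets an upper bound on the level: with the Ct put at 40, these bounds were -26.02, -26.61 and -25.57 in MDC 1 to 3 for every assay without signal. Against the myocyte mean of -7.58 ± 0.20 (SD, n = 2), the difference was at most -18.49 log2 units. Assays without signal in 1 group were left out of the limma test. Of the 39 miRNAs without MDC signal, miR-208 had the second largest bound, after miR-484 at -18.62. Because these 39 share the same MDC bounds, this order is only that of their myocyte levels. It does not rank the size of the falls. Of the 70 miRNAs brighter than miR-208 in myocytes, 1 (miR-484) was without signal in MDCs.

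miR-208b, from the beta myosin gene, was much dimmer. Its Ct was 26.6, 26.6 and 26.8 and its level -11.89, -11.68 and -11.66 in Myocyte 1 to 3, with ranks of 126, 124 and 124. The myocyte mean was -11.78 ± 0.16 (SD, n = 2), and with no signal in the 3 MDC wells the difference was at most -14.28. Of 122 brighter miRNAs, 9 were without MDC signal, and the bound of miR-208b was the tenth largest of 39, again in the order of myocyte levels.

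miR-486, from the ankyrin gene, had nearly the level of miR-208b. Its Ct was 26.8, 27.3 and 27.6 and its level -12.14, -12.39 and -12.45 in the myocyte sets, at ranks 132, 133 and 134. The mean was -12.28 ± 0.20 (SD, n = 2), and the difference to the MDC bound was at most -13.79. Red cells also carry miR-486, and of the 2 erythroid markers listed, miR-144 was not on the card. The other, miR-451, was near the limit of detection, with Ct 32.9, 34.0 and 34.2 and levels of -18.25, -19.14 and -19.13 in Myocyte 1 to 3, and it had no signal in MDCs. miR-486 was thus over 6 log2 units above miR-451 in each myocyte set. The part of red cells in the miR-486 level was not tested.

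A single well can also fail. Between the 2 myocyte cards, 23 miRNAs gave signal on 1 card only, at a Ct of 25.2 to 38.1 (median 33.3). Of 144 miRNAs with a Ct under 28 on either myocyte card, 1 (mmu-miR-98, at 25.2) was missing from the other card. miR-208, miR-208b and miR-486 were all in that Ct range in myocytes, and their MDC wells were empty in 3 sets that may be readings of 1 card.

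The order of the 4 in myocytes was miR-499, miR-208, miR-208b and miR-486, and it was the same in every set. Differences between 2 assays also reflect how well each assay amplifies, so the size of such a gap within 1 set is not a ratio of molecules. The Ct of miR-208 was 3.15, 2.85 and 2.87 cycles above that of miR-499 in Myocyte 1 to 3. The Ct of miR-208b was 4.17, 4.22 and 4.24 cycles above that of miR-208, which would be 18.0, 18.7 and 18.9-fold less template at equal amplification. The alpha-hosted miRNA was thus ahead of the beta-hosted one in all 3 sets by nearly the same amount. miR-486 was 0.25, 0.71 and 0.79 cycles above miR-208b, and the card means of these 2, -12.28 ± 0.20 and -11.78 ± 0.16, were further apart than either SD, with no test between assays.

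On the scale of all 196 miRNAs with signal on both myocyte cards, miR-499 was 33rd, between miR-139-5p (-4.56 ± 0.25, SD, n = 2) and miR-106a (-4.58 ± 0.28). miR-208 was 71st, between miR-15b (-7.57 ± 0.12) and miR-19a (-7.65 ± 0.20). miR-208b was 123rd, between miR-31 (-11.75 ± 0.39) and rno-miR-505 (-11.79 ± 0.23). miR-486 was 132nd, between miR-7a (-12.19 ± 0.0015) and miR-494 (-12.30 ± 0.44). None of these neighbours differed from its member by more than the spread between cards. Their differences between MDCs and myocytes varied widely. Next to miR-499, miR-139-5p was lower in MDCs (difference -8.89, limma adjusted p = 1.11e-56) and miR-106a was higher by 0.72 (limma adjusted p = 0.0496). Next to miR-486, miR-494 was higher by 4.57 (limma adjusted p = 1.80e-26).

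**Figure D2:**
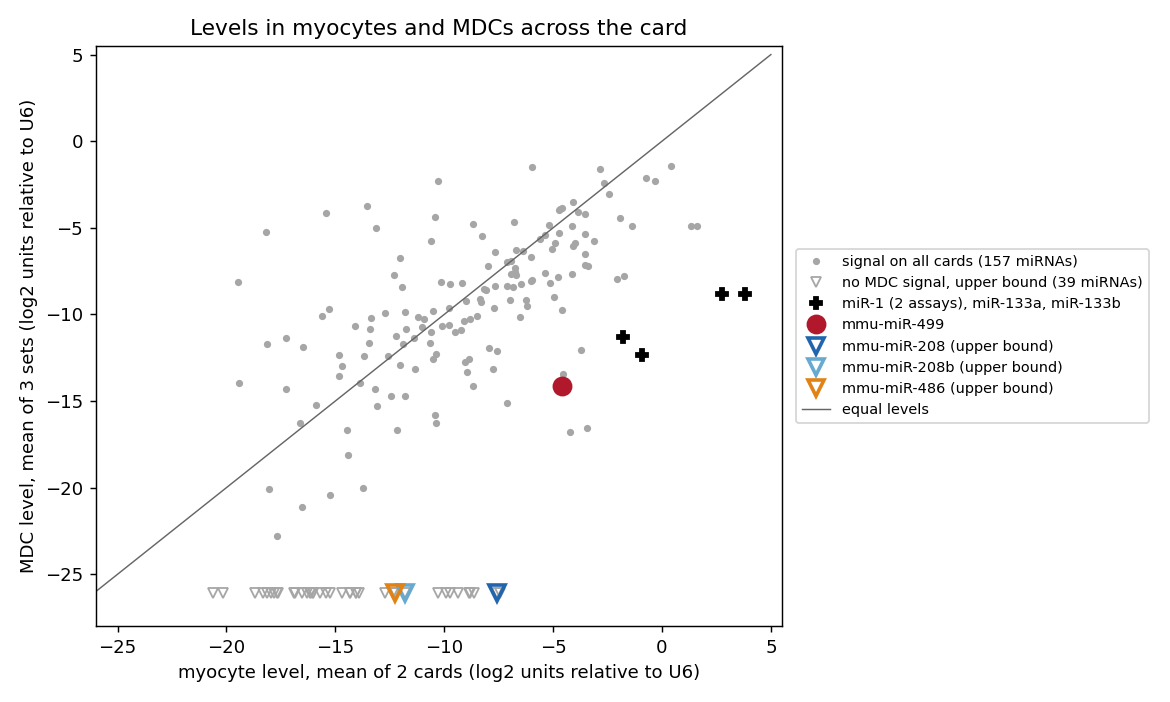
Myocyte level (x axis, mean of 2 cards) against MDC level (y axis, 1 sample averaged over 3 sets), both in log2 units relative to U6, for miRNAs with signal on both myocyte cards. The line marks equal levels and downward triangles are upper bounds at Ct 40. miR-499 lies below the line, with a difference of -9.57. Near the right end of the 39 miRNAs without MDC signal lies miR-208, with only miR-484 further right.

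Within a set, differences between assays do not depend on U6. The gap between miR-208 and miR-499, about 3 cycles in myocytes, was at least 11.99, 12.73 and 11.06 cycles in MDC 1 to 3. It therefore widened by at least 8.92 cycles, and miR-208 stood further behind miR-499, which shares bases 2 to 7 with it, in MDCs than in myocytes. For the dimmer miR-208b the gap to miR-499 was 7.33, 7.07 and 7.11 cycles in myocytes, and for miR-486 it was 7.57, 7.79 and 7.90. In MDCs both were at least 11.06 cycles behind miR-499. These gaps were not tested, and an exact permutation test of 2 samples against 1 could not go below p = 0.333.

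The other muscle miRNAs listed were miR-1 (a mouse and a rat assay), miR-133a and miR-133b, which are made from genes of their own or from other hosts and act in muscle growth and excitability, and miR-206, which was not on the card. All 4 assays on the card were lower in MDCs (limma adjusted p under 0.05 over all 157), against 52.2% of all miRNAs tested, with a median difference of -11.51. The differences were -12.59 for miR-133a, -11.61 for rno-miR-1, -11.41 for miR-133b and -9.55 for mmu-miR-1, beside -9.57 for miR-499. In contrast to miR-208, miR-208b and miR-486, they kept a signal in MDCs. They also started higher in myocytes: the lowest, mmu-miR-1, had a mean level of -1.77. The levels of miR-208, miR-208b and miR-486 were -7.58, -11.78 and -12.28. With the limit at Ct 35, the bounds of miR-208b and miR-486 were -9.28 and -8.79, smaller than the falls of these assays. Presence or absence of signal therefore does not rank the falls.

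Set against these assays within each set, miR-499 kept its distance from mmu-miR-1, the mouse assay, and came closer to the others. The Ct of miR-499 was 3.01, 2.69 and 2.50 cycles above mmu-miR-1 in Myocyte 1 to 3 and 2.97, 2.94 and 2.53 in MDC 1 to 3, so the groups overlapped. Above miR-133b it was 3.47, 3.92 and 3.79 in myocytes and 2.06, 1.62 and 1.78 in MDCs. Above miR-133a it was 8.15, 8.60 and 8.58 in myocytes and 5.01, 5.20 and 5.83 in MDCs. For miR-133b and miR-133a the gap was smaller in each MDC reading than in the myocyte sets. As merged here, this sets 1 MDC sample against 2 myocyte samples, and it was not tested. Against rno-miR-1 the gap was 7.41, 7.27 and 7.26 in myocytes and 4.01, 5.54 and 6.34 in MDCs. It was again smaller in each MDC reading, but with a wide spread among these readings. The 2 miR-1 assays, for the mouse and the rat sequence, thus gave different gaps. In these rat myocytes the mouse assay also read lower, with a mean level of -1.77 against 2.77 for rno-miR-1. The steady gap to miR-499 therefore rests on the mouse assay alone, and the reason for the disagreement was not tested.

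**Figure D3:**
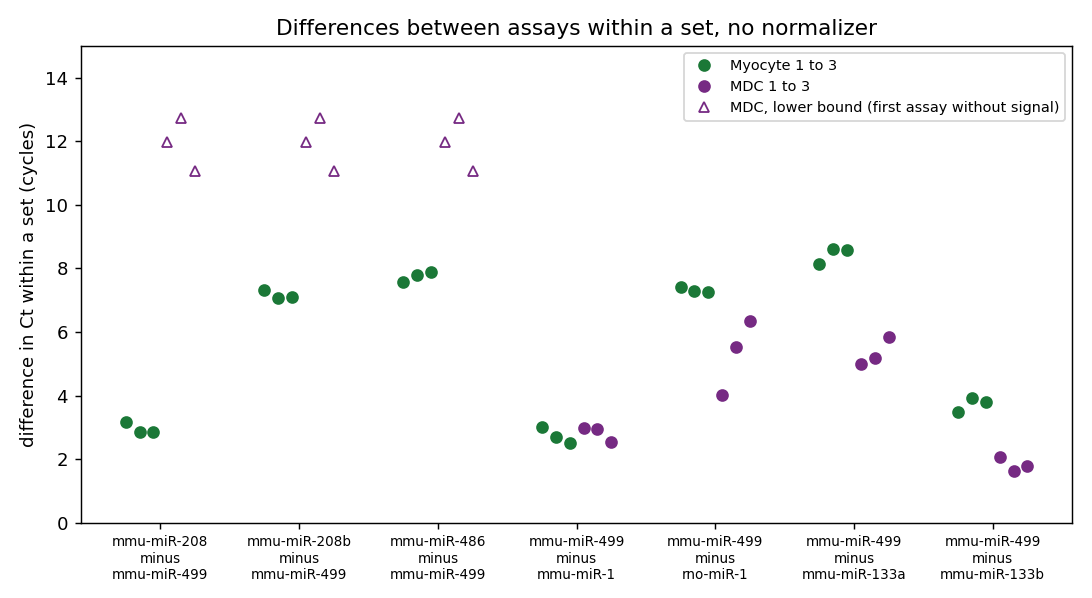
Difference in Ct between pairs of assays within a set (y axis, cycles), for 3 myocyte and 3 MDC sets. Open triangles are lower bounds where the first assay had no MDC signal. The gap of miR-208 to miR-499 was 2.85 to 3.15 cycles in myocytes and at least 11.06 in MDCs. By contrast, the gap of miR-499 to mmu-miR-1, the mouse assay, overlapped between groups. Its gap to rno-miR-1, the rat assay, did not overlap.

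The level profiles over the 6 sets were also compared with those of 254 assays, each centred on its own mean and with missing Ct at 40, by the root mean square difference in log2 units. Most like miR-499 were mmu-miR-1 (0.211), miR-139-5p (0.506) and rno-miR-336 (0.519), the last without MDC signal. Most like miR-208 were miR-484 (0.135), miR-200c (0.618) and miR-345-5p (0.670), all without MDC signal. miR-208b was closest to miR-455 (0.271), miR-486 (0.337) and miR-345-3p (0.549). miR-486 was closest to miR-345-3p (0.228), miR-455 (0.242) and miR-208b (0.337). Likeness among assays without MDC signal rests on similar myocyte levels, because their MDC values are the same bound.

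A list of 37 miRNAs within introns of other protein-coding genes gave a comparison with other hosts, and 33 were on the card. Of 27 with signal on every card, 15 were lower in MDCs, 6 were higher and 6 were not called, with a median difference of -1.01 beside -0.80 over all 157. The share lower was thus near the background of 52.2%. Of the rest, miR-338-3p had signal in myocytes but not in MDCs (difference at most -8.37), miR-211 in MDCs but not in myocytes (difference at least 12.69), 1 had signal on 1 myocyte card and 3 had none. Among those called, the largest falls were those of miR-139-5p (host Pde2a, a phosphodiesterase) at -8.89 and miR-126-3p (host Egfl7, an endothelial secreted protein) at -8.35, both smaller than that of miR-499. The largest rises among those called were those of miR-335-3p (host Mest, an imprinted gene) at 5.53 and miR-218 (hosts Slit2 and Slit3, axon guidance ligands) at 3.93. The 4 myosin- and ankyrin-hosted miRNAs were not tested as a group against this list.

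Markers of other cell types moved with the groups. The summed level of the 2 endothelial markers was -3.78 to -3.35 in myocytes and -12.84 to -11.39 in MDCs, and both were lower. The summed level of the 5 fibroblast markers was -5.94 to -5.82 in myocytes and -1.81 to -0.86 in MDCs, 4 being higher and miR-199a-5p having signal in MDCs only. The 2 smooth muscle markers summed to -0.22 to -0.05 and -2.90 to -1.73, and both were lower. The 5 leukocyte markers summed to -4.18 to -4.04 and -6.96 to -4.61, with 3 lower, 1 higher and 1 in MDCs only. Lower calls were also the most frequent over all miRNAs tested, as given above, with a median difference of -0.80. The marker differences hold relative to U6. With Y1 every difference shifts by 4.49, more than the falls of miR-143 (-2.64) and miR-145 (-1.99). Many of these miRNAs are made by several cell types, and the part of cell mixture in the values of the 4 miRNAs was not tested.

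The size of the miR-499 difference depended on the control RNA. Another control shifts every miRNA by the same amount: snoRNA135 by 0.13, the mean of all miRNAs with signal in every set by 0.90, Y1 by 4.49 and U87 by 14.09 log2 units. With snoRNA135 in place of U6 the miR-499 difference was -9.43 and with Y1 it was -5.08. Relative to U6, U87 itself lay at -3.87, -3.62 and -3.61 in Myocyte 1 to 3, against -17.00, -17.76 and -18.74 in MDC 1 to 3. With U87 alone every one of the 157 miRNAs was higher in MDCs and none lower, and miR-499 was higher by 4.53. With the mean of the 3 other controls, 10 miRNAs were lower and 140 higher, against 82 and 44 with U6, and miR-499 remained lower at -3.33. With no normalizer 64 were lower and 62 higher. The absence of signal for miR-208, miR-208b and miR-486 in MDCs does not depend on the control.

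**Figure D4:**
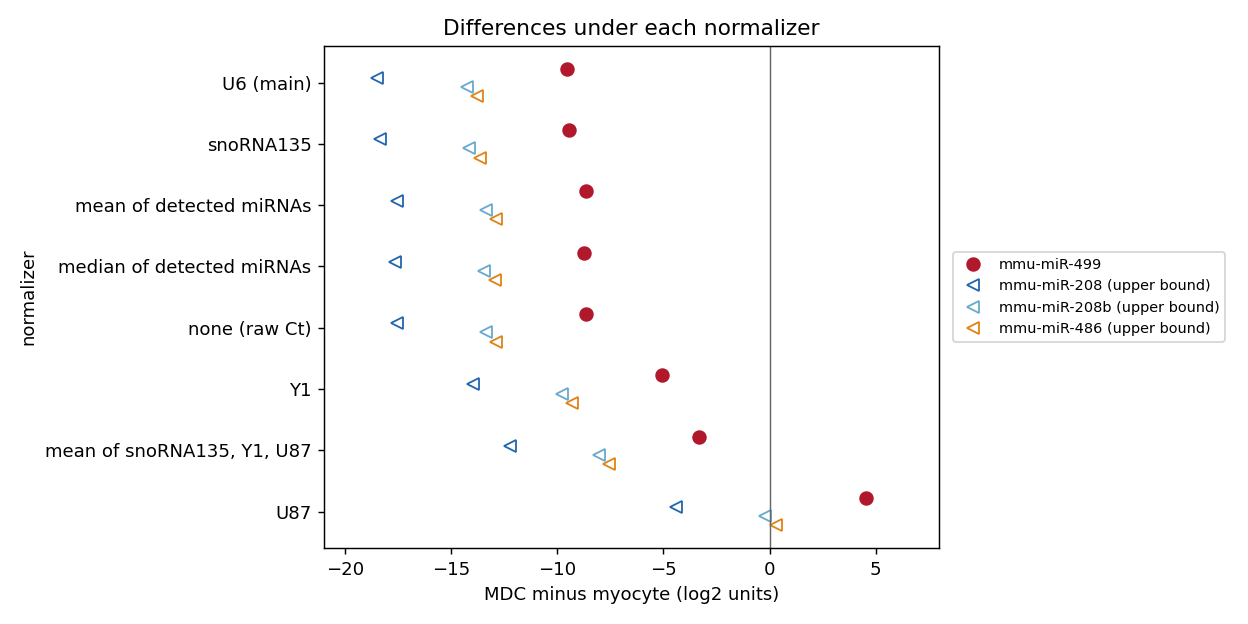
Difference MDC minus myocyte (x axis, log2 units) for the 4 miRNAs under each normalizer (y axis). Circles are values of miR-499 and left-pointing triangles are upper bounds, beyond which the true value lies to the left. miR-499 was at -9.57 with U6 and at 4.53 with U87 alone, and was lower in MDCs under every other normalizer drawn.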

How the data were processed

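The deposited Ct values (in PCR cycles) were made by the authors from total RNA by reverse transcription, pre-amplification and TaqMan rodent cards. Threshold and baseline settings are not given in the sources used here. Undetermined and 40 were both read as no signal. The authors' deposited table of U6-adjusted Ct values differed from raw Ct minus mean U6 by at most 5e-05 cycles and was not run separately. Readings with the same empty wells and U6 pattern were averaged, giving 2 myocyte samples and 1 MDC sample. Levels of 157 miRNAs with signal on every card were tested with limma 3.58.1 in R 4.3.3 with Benjamini-Hochberg adjustment at 0.05, after the fit had been tested on simulated data. Members without MDC signal got bounds. Nothing was imputed unless stated.

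Beside the 4 members, miRNAs were named as neighbours in myocyte level, by the 3 most similar profiles, and as listed muscle miRNAs, the 2 largest called falls and rises of the intronic list, controls and erythroid markers. mmu-miR-98 and the single miRNAs named beside small counts were chosen after their values were seen. Members and lists were chosen with earlier results of these data known. Alternatives were other normalizers, Ct limits of 35 and 32, missing Ct at 40, all 6 sets, the replicate block, single MDC readings, MDC readings as 3 samples, other moderation, the methods' unpaired test and leaving out each set. U87 alone and Y1 alone were added after seeing the data. Sequences came from RefSeq tables (GRCr8). Figures used matplotlib 3.10.9 in Python 3.11.15.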

Additional observations from a re-analysis of the deposited data

How the results depend on the processing

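The number of cards limits these values: the MDC sets were merged into 1 sample, so no spread among MDC samples enters, and a missing Ct gives only a bound, which moves with the normalizer and the Ct limit. miR-499 was lower in MDCs at an adjusted p under 0.05 in 22 of its 24 alternatives (limma or the methods' unpaired test, adjusted p from 6.56e-69 to 9.14e-05). Of the other 2, 1 gave no test (without Myocyte 1, -9.56), and with U87 alone miR-499 turned to 4.53 (limma adjusted p = 4.76e-05).

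Bounds of miR-208, miR-208b and miR-486, in this order, were -12.25, -8.05 and -7.55 with the mean of the other controls, -17.58, -13.38 and -12.88 with the mean and -17.65, -13.44 and -12.95 with the median of miRNAs with signal in every set, and -17.57, -13.37 and -12.87 with raw Ct. They were -14.00, -9.80 and -9.30 with Y1 alone and -4.39, -0.19 and 0.31 with U87 alone, where a bound above 0 gives no direction. With the limit at Ct 35 they were -13.49, -9.28 and -8.79, and at Ct 32 they were -10.49, -6.28 and -5.79. MDC reading 2 alone gave -19.03, -14.83 and -14.33, and reading 3 alone -17.98, -13.78 and -13.28. Leaving out each set gave -18.74 to -18.21, -14.54 to -14.01 and -14.04 to -13.51. With the missing Ct set at 40 the differences equalled the main bounds by construction. A test of these filled-in values cannot speak to the MDC level, so its p-values are left out.

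The widening between miR-208 and miR-499 was at least 3.92 cycles at Ct 35 and 0.92 at Ct 32, and 8.52 to 9.36 when each set was left out. The count of all miRNAs lower in MDCs (82) became 10 with the other controls, 16 with Y1 alone and 0 with U87 alone (limma, 0 also at an unadjusted p under 0.05). The intronic count (15) became 3, 3 and 0, and that of the other muscle miRNAs (4) became 0 with U87 alone.

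With the replicate block over all 6 sets the miR-499 difference was -9.56 (limma adjusted p = 5.53e-09) and 69 miRNAs were lower. Deviations of same-numbered sets correlated at 0.117, -0.077 and 0.238 over 157 miRNAs. Because several sets may be readings of 1 card, these correlations cannot decide whether same-numbered sets were paired.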
